A study of Homo sapiens with 14 samples.

Results

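AKAP12 and SDCBP2 led a group of SW620 colon cancer cells from late colony culture, and they are described here with RGCC, LGALS9, PSORS1C1, CAPN12, NT5C3A, LRP1 and SHC2. The 9 genes were found by symbol among the 36601 genes of the single-cell matrices and the 60624 genes of the bulk tables, and all 9 passed the filter on low counts in both. They were proposed from the same single-cell libraries in which they are described, so their differences between late and early days are given as values without a test. AKAP12 and SDCBP2 led a grouping of late cells, and how the other 7 were picked is not recorded. They were proposed as genes of cells that disperse from the colonies. In the bulk libraries of day 15 none of the 9 had a higher TPM outside than inside the colonies in both lines, as 28.6% of all genes had. Some were higher outside in a single line. With 1 library per line and location this does not settle the name, and the genes are called here the 9 genes led by AKAP12 and SDCBP2.

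SW620 is an established cell line from a lymph node metastasis of a colon adenocarcinoma, and SW480 comes from the primary tumor of the same patient. SW620-TET2CD carries the catalytic domain of TET2, an enzyme that oxidizes 5-methylcytosine in DNA. The SW620 cultures named beside it carry an empty FLAG vector according to the study. Single-cell RNA-seq was performed on SW620 and SW620-TET2CD on days 6, 9, 12 and 15 of culture without passage, and bulk RNA-seq on undivided SW480 and SW620 cultures of day 6 and on SW620 and SW620-TET2CD on day 15. The day 15 bulk cultures had been parted with a strainer into cells outside the colonies, which passed as single cells, and cells inside, which were kept back as spheres. Each line, day and location had 1 library, so no group has replicates and every p-value below rests on libraries of other days, lines or locations.

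The 8 single-cell libraries kept 48282 of 67056 barcodes, 3894 to 8154 cells a library, with 48186195 to 74185723 UMIs in all and a median of 6640 to 13479 UMIs a cell. In the largest and smallest library, 3 UMIs correspond to 0.0404 and 0.0623 CPM (counts per 1e6 UMIs of the library). Pairs of libraries shared 1 to 23 barcodes. The bulk libraries summed to between 16470176 and 25840563 expected counts. TET2, which the introduced fragment raises, was at 2.11 to 3.90 CPM in SW620. In SW620-TET2CD it was at 106.6, 59.5, 40.2 and 41.6 CPM on days 6, 9, 12 and 15. The part of this difference between days in the line comparisons below was not tested. The 10 intestinal epithelial markers summed to 8099 to 12242 CPM, most of it from the keratins KRT8 (2991 to 4327 CPM) and KRT18 (4335 to 7254 CPM). CDX1 and KRT20 were under 1 CPM in every library. CDH17 (0.25 to 2.98 CPM) and LGALS4 (0.39 to 1.75 CPM) were also low. The 12 markers of blood, vessel, stromal and liver cells summed to 7.34 to 18.5 CPM on days 6 and 9 and to 16.7 to 36.9 CPM on days 12 and 15, with 9 of the 12, among them PTPRC, DCN and ALB, under 1 CPM in every library. LYZ carried most of that sum, and its part in the results below was not tested.

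The 9 proteins belong to different pathways. AKAP12 is a scaffold that holds protein kinase A and protein kinase C near the plasma membrane, and SDCBP2 (syntenin-2) is a PDZ-domain protein related to syntenin, which binds the tails of syndecans. RGCC binds the mitotic kinase CDK1, NT5C3A removes phosphate from pyrimidine nucleotides, CAPN12 is a calpain-family protease, LRP1 is an endocytic lipoprotein receptor, SHC2 is an adaptor that couples receptor tyrosine kinases to RAS signaling, and LGALS9 is galectin-9, a lectin that binds galactosides. PSORS1C1 lies in the psoriasis susceptibility region of the major histocompatibility complex and its function is not well known.

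In GRCh38 with the GENCODE annotation, AKAP12 lies on chromosome 6 from 151239967 to 151358559 and PSORS1C1 on the same chromosome from 31114750 to 31140092. SDCBP2 lies on chromosome 20 from 1309909 to 1329139, RGCC on chromosome 13 from 41457550 to 41470871, LGALS9 on chromosome 17 from 27629798 to 27649560 and NT5C3A on chromosome 7 from 33014130 to 33062796. LRP1 lies on chromosome 12 from 57128483 to 57213361, and SHC2 and CAPN12 both lie on chromosome 19, from 416589 to 461033 and from 38730187 to 38769904. SDCBP2, NT5C3A, CAPN12 and SHC2 are on the minus strand and the others on the plus strand. CAPN12 shares 868 exonic bases with ACTN4 on the opposite strand, and PSORS1C1 shares 2394 with CDSN. LRP1 shares 59 with STAT6, which was at 32.2 to 74.2 TPM in bulk, also on the opposite strand. The bulk library kit that the methods name does not mark strand, so bulk reads from such shared bases cannot be told apart. ACTN4, an actin cross-linker, was at 489 to 2407 TPM in bulk, and bulk values of CAPN12 may hold reads of ACTN4. CDSN was at most 0.26 TPM. SDCBP2 and LGALS9 share 244 and 294 exonic bases with protein-coding genes without a symbol on their own strand, and SDCBP2, PSORS1C1, LRP1 and CAPN12 share 112 to 225 with a further gene on the opposite strand. LGALS9 has near-identical copies, LGALS9B with at most 2 UMIs in any library and LGALS9C with 0.

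Promoters are shown for 4 of the genes that were higher in every late than in every early single-cell library and that hold the AP-1 motif or the hypoxia response core, because the 4 differ in their letters although they share that direction over days. The sequences are the 250 bases before a transcription start, read 5′ to 3′ on the gene's strand, from RefSeq in GRCh38.p14. Capitals mark TGANTCA, the AP-1 motif, and ACGTG or GCGTG, the core of the hypoxia response element, on either strand. The coordinates are chr6:151239717-151239966 (plus strand) for AKAP12, chr20:1329140-1329389 (minus strand) for SDCBP2, chr13:41457300-41457549 (plus strand) for RGCC and chr6:31114550-31114799 (plus strand) for PSORS1C1.
AKAP12: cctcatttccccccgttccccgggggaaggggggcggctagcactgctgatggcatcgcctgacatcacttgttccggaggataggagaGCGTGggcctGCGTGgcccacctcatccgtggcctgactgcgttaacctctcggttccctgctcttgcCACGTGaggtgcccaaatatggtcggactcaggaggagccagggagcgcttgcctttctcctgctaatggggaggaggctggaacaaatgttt
SDCBP2: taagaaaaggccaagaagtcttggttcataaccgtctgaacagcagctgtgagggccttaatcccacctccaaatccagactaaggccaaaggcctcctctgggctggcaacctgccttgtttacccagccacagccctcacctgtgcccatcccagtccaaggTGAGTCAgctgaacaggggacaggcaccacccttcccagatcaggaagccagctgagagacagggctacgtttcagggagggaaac
RGCC: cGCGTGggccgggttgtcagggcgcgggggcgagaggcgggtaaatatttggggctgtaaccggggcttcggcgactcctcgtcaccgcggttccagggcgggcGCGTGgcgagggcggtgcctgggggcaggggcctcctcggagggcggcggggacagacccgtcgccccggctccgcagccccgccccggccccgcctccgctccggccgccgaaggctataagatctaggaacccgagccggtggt
PSORS1C1: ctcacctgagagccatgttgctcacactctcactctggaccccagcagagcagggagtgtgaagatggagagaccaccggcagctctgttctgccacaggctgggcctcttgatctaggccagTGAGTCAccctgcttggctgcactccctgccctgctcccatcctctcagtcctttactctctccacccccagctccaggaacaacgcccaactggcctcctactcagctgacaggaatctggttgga

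The table of promoters held 13 windows for 8 of the 9 genes and none for CAPN12. The AP-1 motif was in 2 of the 13, the SDCBP2 and PSORS1C1 windows shown, and in 6.57% of the 35116 windows of the same length. The hypoxia response core was in 5 of the 13 and in 43.2% of all windows. These 5 were all 3 AKAP12 windows, the RGCC window and 1 of the 2 NT5C3A windows. Of the other 5 of 7 motifs searched on both strands, the GC box GGGCGG was in 8 of the 13 windows (42.6% of all windows), the E-box CACCTG in 2 (17.5%), CCAAT in 1 (32.0%), TATAAA in 1 (10.7%) and the interferon response core GAAANNGAAA in 0 (3.02%). Each AKAP12 window holds CACGTG, which reads ACGTG on both strands and is also an E-box. RGCC had the most CpG sites, 34 in its window, a count above that of 93.2% of windows, and LGALS9 had 1, while the median over all windows was 11. The single-cell reads come from the 3′ end of transcripts and do not tell which of several starts was used.

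In the single-cell libraries, 8 of the 9 genes were higher in each of the 4 libraries of days 12 and 15 than in each of the 4 libraries of days 6 and 9, and LGALS9 was not. Over all 16526 genes tested, 29.9% had that order and 22.4% the opposite one, and since the genes were chosen on these libraries nothing is read from the comparison. From day 12 to day 15 the CPM of AKAP12, SDCBP2 and RGCC was higher again in both lines. CAPN12, NT5C3A, LRP1, SHC2 and PSORS1C1 had ratios of day 15 over day 12 of 0.796 to 0.974 in SW620, within counting error of 1 for SHC2 and PSORS1C1, and were higher in SW620-TET2CD, with ratios of 1.23 to 2.05.

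AKAP12 in SW620 was at 62.3, 118, 319 and 1711 CPM on days 6, 9, 12 and 15, and in SW620-TET2CD at 90.6, 94.0, 268 and 1390 CPM. The lowest late library was above the highest early one, and both lines were highest on day 15. From day 6 to day 15 the level was 27.4-fold higher in SW620 (95% counting interval 26.6 to 28.3) and 15.4-fold higher in SW620-TET2CD (15.0 to 15.7). In CPM most of this lay between days 12 and 15, with a ratio of 5.37 in SW620 and 5.19 in SW620-TET2CD. The ratios of day 9 over day 6 and day 12 over day 9 were 1.90 and 2.69 in SW620. In SW620-TET2CD they were 1.04 and 2.85. Counting intervals cover counting error only and not the spread between cultures.

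SDCBP2 in SW620 was at 5.50, 5.15, 44.7 and 122 CPM on the 4 days, and in SW620-TET2CD at 5.96, 4.70, 25.6 and 68.4 CPM. The early libraries lay close together, and the first increase fell between days 9 and 12, by a ratio of 8.68 in SW620 and 5.44 in SW620-TET2CD, followed by 2.73 and 2.67 to day 15. RGCC in SW620 was at 7.70, 4.87, 16.3 and 45.4 CPM, and in SW620-TET2CD at 6.59, 2.83, 10.0 and 19.9 CPM. RGCC was lower on day 9 than on day 6 in both lines, by a ratio of 0.633 (0.545 to 0.733) in SW620 and 0.429 (0.362 to 0.506) in SW620-TET2CD, before it was highest on day 15. With every barcode kept, its lowest late library (8.68 CPM) was below its highest early one (9.31 CPM).

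NT5C3A in SW620 was at 75.4, 74.3, 315 and 300 CPM on the 4 days, and in SW620-TET2CD at 80.1, 80.1, 280 and 343 CPM. Its level on day 9 did not differ from day 6 beyond counting error in either line (ratios 0.985 and 0.999), and the step to day 12 was 4.23-fold in SW620 and 3.50-fold in SW620-TET2CD. CAPN12 in SW620 was at 3.70, 4.85, 36.2 and 31.4 CPM, and in SW620-TET2CD at 4.23, 5.20, 25.2 and 33.8 CPM. LRP1 in SW620 was at 1.77, 2.08, 12.3 and 9.82 CPM, and in SW620-TET2CD at 1.73, 1.82, 10.6 and 13.6 CPM. From day 12 to day 15 the 3 genes went down in SW620, with ratios of 0.952 for NT5C3A, 0.867 for CAPN12 and 0.796 for LRP1, and up in SW620-TET2CD, with ratios of 1.23, 1.34 and 1.28. Across the 8 libraries, which share lines and days, the log2(CPM + 1) profiles of the 3 genes were almost the same shape. Pearson r was 0.995 between NT5C3A and LRP1 and 0.992 between CAPN12 and LRP1. NT5C3A with SHC2 had 0.987. The 9 genes were proposed from these same libraries, so nothing is read from these values.

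SHC2 was close to absent on the early days, with 3 and 6 UMIs in SW620 on days 6 and 9 and 3 and 3 in SW620-TET2CD. On days 12 and 15 it had 270 and 274 UMIs in SW620 (5.32 and 5.18 CPM) and 126 and 273 in SW620-TET2CD (2.61 and 5.35 CPM). Late over early, the ratio was 74.8 in SW620 with a counting interval of 39.1 to 164 and 98.4 in SW620-TET2CD with an interval of 44.8 to 270. PSORS1C1 had the smallest difference of the 8 genes, at 5.54, 7.15, 15.1 and 14.5 CPM in SW620 and 4.54, 4.85, 10.3 and 13.2 CPM in SW620-TET2CD. LGALS9 stayed within 5.72 to 7.70 CPM in all 8 libraries, and its late values (5.94 to 7.70) overlapped its early ones (5.72 to 7.58).

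**Figure D1:**
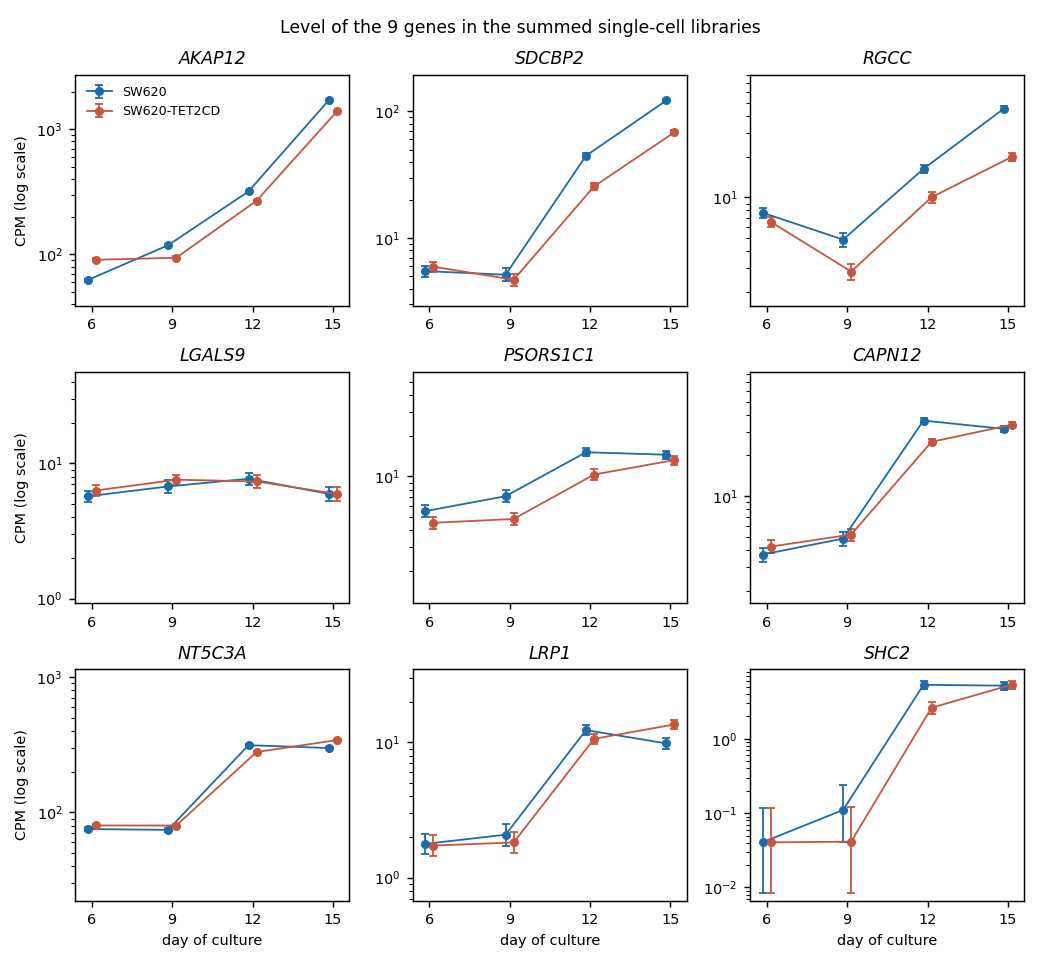
Level of each gene in CPM (log axis) against the day of culture, 1 point per library, SW620 in blue and SW620-TET2CD in red, with 95% counting intervals that are often smaller than the points. AKAP12 went from 62.3 to 1711 CPM in SW620, NT5C3A stepped up between days 9 and 12, and LGALS9 stayed within 5.72 to 7.70 CPM.

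Libraries of different depth were put on one scale by drawing 2000 UMIs from each of the 47949 cells that had them, which left out 333 cells. The share of such cells with an AKAP12 UMI was 8.93% to 13.9% on days 6 and 9. It was 20.9% in SW620 and 19.8% in SW620-TET2CD on day 12, and 56.5% (exact binomial 95% interval 55.3% to 57.7%) and 48.1% (46.8% to 49.4%) on day 15. Without drawing, the shares in SW620 were 37.4% on day 6 and 74.2% on day 15. The positive cells also held more, with a mean of 2.22 AKAP12 UMIs per positive cell in SW620 on day 6, 9.14 on day 12 and 17.6 on day 15 before drawing. Cells with at least 5 AKAP12 UMIs among 2000 made up 0.235% of SW620 on day 6 and 22.7% on day 15, and 0.332% and 19.5% of SW620-TET2CD. The day 12 libraries lay between, at 4.09% and 3.10%.

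For SDCBP2 the share after drawing was 0.886% to 1.19% on the early days, 7.93% in SW620 and 5.91% in SW620-TET2CD on day 12, and 20.9% and 14.1% on day 15. For NT5C3A it was 13.9% to 14.8% on the early days and 40.0% to 46.8% on the late ones, so the step of the summed level was also a step in the share of cells. SHC2 was in 0 of 5529 cells of SW620 on day 6, and in 1.10% and 1.30% of cells of SW620 and SW620-TET2CD on day 15. LGALS9 was in 1.10% to 1.84% of cells throughout, with no separation of early and late. Every library is of 1 cell line, so no cell type that should lack these genes was there to measure the share that free RNA gives.

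The number of the 9 genes seen in a cell was higher on the late days than on the early ones. It did not rise from day 6 to day 9 in SW620-TET2CD, where 70.7% and 72.0% of cells had none. Among cells drawn to 2000 UMIs, 69.7% to 73.9% had none on the early days, 37.9% in SW620 and 43.7% in SW620-TET2CD on day 12, and 19.3% and 24.5% on day 15. The mean number was 0.285 to 0.346 a cell on the early days and 1.40 in SW620 and 1.28 in SW620-TET2CD on day 15. Cells with 3 or more made up 0.127% to 0.283% on the early days and 13.5% and 11.6% on day 15, and no cell had more than 6. AKAP12 (56.5% of cells) and NT5C3A (41.9%) gave most of the mean in SW620 on day 15. The number per cell that the single shares alone would give was not computed, so no joint rise is read from these counts.

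**Figure D2:**
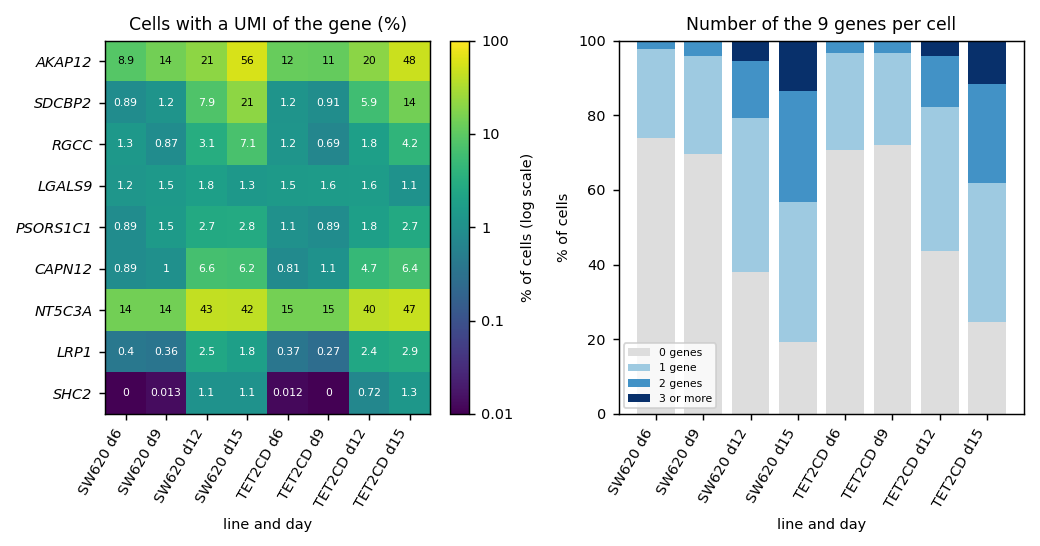
Left, percent of cells drawn to 2000 UMIs that had a UMI of each gene, with colors on a log scale that starts at 0.01% (columns are line and day, TET2CD standing for SW620-TET2CD). Right, percent of those cells with none, 1, 2 or 3 and more of the 9 genes. Cells with none went from 73.9% on day 6 to 19.3% on day 15 in SW620.

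Whether the genes were seen in the same cells was described by the number of cells with both over the number that the single shares give, in the 4 late libraries and after drawing. Of the 36 pairs, 17 had at least 5 cells to be met by chance in each late library. Of these 17, 11 were above 1 in all 4 libraries and 0 were below 1 in all 4. Some were barely above 1, such as AKAP12 with SHC2, whose lowest ratio was 1.002. The share of all gene pairs with that order was not computed, so nothing is read from the count. The highest were AKAP12 with RGCC (median 1.82, range 1.35 to 2.63) and AKAP12 with SDCBP2 (median 1.76, range 1.26 to 2.10). AKAP12 and SDCBP2 led a grouping of these same late cells, so their being seen together may follow from that choice and nothing is read from it. For comparison, AKAP12 with all genes seen in 1% to 20% of cells had a median ratio of 0.979 to 1.00 and a 95th percentile of 1.14 to 1.47. The 95th percentile was 1.42 to 2.32 for RGCC and 1.31 to 1.85 for SDCBP2. Neither pair lay above that of RGCC or SDCBP2, respectively, in every late library. NT5C3A was above 1 with SDCBP2 (median 1.29) and with AKAP12 (1.16). Against all such genes, SDCBP2 with NT5C3A lay below the 95th percentile of SDCBP2 (1.31 to 1.85) in each late library and above that of NT5C3A (1.14 to 1.25) in 3 of 4. AKAP12 with NT5C3A lay below that of AKAP12 in each and above that of NT5C3A in 1 of 4. NT5C3A was in more cells than the genes compared, which limits how high its ratios can be. AKAP12 with CAPN12 had the lowest median, 0.850, with a range of 0.777 to 1.01 and SDCBP2 with CAPN12 a median of 1.06 (0.842 to 1.56). Cells of a library are not replicates and no test was made.

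Late cells with an AKAP12 UMI were set beside those without one in the same library. Of 12 hypoxia-response genes, 10 were higher in the AKAP12-positive cells in all 4 late libraries, against 21.0% of the 8706 genes with a mean of at least 8 CPM. NDRG1, a stress-response gene, had a mean log2 ratio of 1.68 (1.12 to 2.11 over libraries) and EGLN3, a prolyl hydroxylase of the oxygen-sensing pathway, 1.07 (0.63 to 1.31). Of 12 proliferation genes, 4 were lower in all 4 libraries and 0 higher, against 23.1% of genes lower. AURKA, a mitotic kinase, was at -0.46 and BIRC5 (survivin) at -0.41. The other 8 were higher in 1 or 2 of the 4 libraries, and RRM2 had a mean of 0.11 (-0.35 to 1.00). Of 12 epithelial genes 6 were higher and 1 lower, and of 12 mesenchymal genes, of which CDH2 and TWIST1 were at 0 CPM in every group of cells, 5 were higher and 0 lower. Keratin KRT19 (0.84) and E-cadherin CDH1 (0.69) were higher in AKAP12-positive cells together with vimentin VIM (0.83) and the urokinase receptor PLAUR (1.50). The epithelial gene CLDN7 was lower in all 4 libraries (-0.62). The mesenchymal genes FN1 (-0.69) and SNAI1 (-0.53) were lower in 3 of 4.

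In the split by SDCBP2, 12 of 12 proliferation genes were lower in all 4 libraries against 23.0% of genes. BIRC5 was at -2.38 (-3.14 to -1.51) and cyclin CCNB1 at -1.98 (-4.64 to -0.81). The lowest CCNB1 ratio was in SW620 on day 12, where the 310 positive cells had 0 CPM. Its size there was set by the 1 CPM added before the logarithm. Of the hypoxia genes 11 of 12 were higher, against 20.2% of genes, and of the epithelial genes 8 were higher and 0 lower. Among the mesenchymal genes 2 were higher, PLAUR (1.72) and TGFB1 (0.62), and 2 lower, FN1 (-1.04) and SNAI1 (-0.99). VIM was at 0.17 (-0.14 to 0.55). Before drawing, SDCBP2-positive cells were shallower than negative ones in every late library, for example a median of 6039 against 7479 UMIs in SW620 on day 15. Their median mitochondrial share was also lower in every late library, at 3.78% to 5.02% against 5.40% to 7.19%. AKAP12-positive cells were shallower too, with 7117 against 7262 UMIs in that library, and their mitochondrial share was lower in every late library, at 4.89% to 6.18% against 5.53% to 7.56%. The part of these differences in the ratios was not tested. AKAP12, SDCBP2 and the list genes come from the same cells that chose the 9 genes, and the counts are a description.

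**Figure D3:**
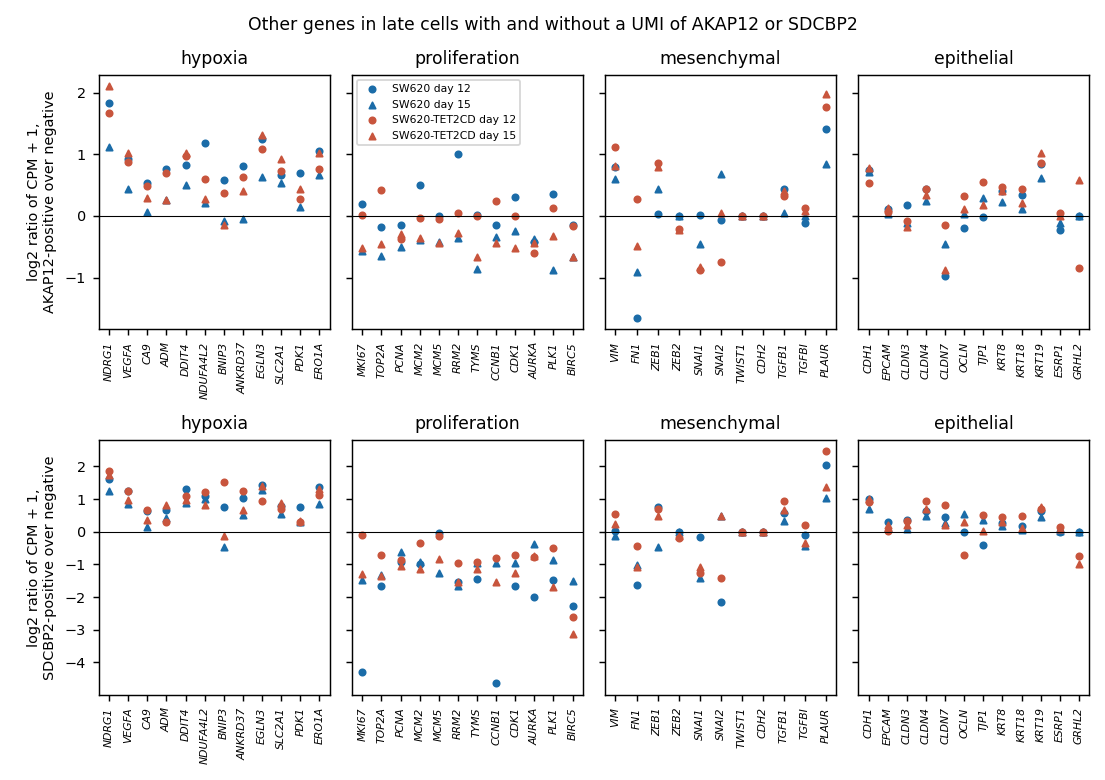
Log2 ratio of CPM + 1 between late cells with and without a UMI of AKAP12 (upper row) or SDCBP2 (lower row), for 12 genes in 3 lists and for 11 of the 12 mesenchymal genes, 1 point per library. CDH2 and TWIST1, at 0 CPM, lie on the zero line. All 12 proliferation genes lie below 0 in the lower row in every library, and NDRG1 reaches 2.11 in the upper row.

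Whether the line played a part in the choice of the 9 genes is not recorded, and the tests between the lines are read with that limit. The difference between SW620-TET2CD and SW620 over the 4 days was fitted in edgeR with day as a block and put to its quasi-likelihood test. RGCC and PSORS1C1 were lower in SW620-TET2CD and passed Benjamini-Hochberg adjustment, and the other 7 did not. Over all genes, 2.37% were called higher and 1.85% lower. RGCC had a log2 fold change of -0.84 (SE 0.16, adjusted p = 0.0126) and was lower on 4 of 4 days, by 0.20, 0.62, 0.65 and 1.15 on the log2(CPM + 1) scale. PSORS1C1 had -0.48 (SE 0.10, adjusted p = 0.0160) and was also lower on 4 of 4 days, an order that 5.78% of genes had. The RGCC call was lost without the SW620 day 9 library (adjusted p = 0.0527), and the PSORS1C1 call without either day 9 library (0.129 and 0.118) or either day 12 library (0.0721 and 0.0731). Without the day block neither passed (adjusted p = 1.00 for both), with log2 fold changes of -1.08 and -0.49. Leaving out either library of a day takes out that day's line difference under the day block. Both fits are then nearly the same, here and below, and are not separate checks. The tests use the same cells in which the genes were proposed.

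SDCBP2 was 0.78 and 0.83 lower in SW620-TET2CD on days 12 and 15 and within 0.11 on days 6 and 9, on the log2(CPM + 1) scale. Its line difference over the 4 days was -0.56 (SE 0.17, adjusted p = 0.110) in edgeR and passed in DESeq2 (-0.54, adjusted p = 0.0400, where 4.38% of all genes were called). With 1 library left out it ranged from -0.75 to -0.34, and it passed without either day 6 library (adjusted p = 0.0285 and 0.0276, where 3.23% and 3.19% of genes were called) and with no filter on low counts (1.94e-05, 5.53% of genes). SHC2 differed by -0.00029, -0.09, -0.81 and 0.04 on days 6, 9, 12 and 15, on the same scale. With 3 to 6 UMIs in each early library, days 6 and 9 say little about its line difference. Without day 15, only the day 12 pair had more than 6 UMIs a library. The SHC2 line difference over the 4 days was fitted at -0.65 (SE 0.21, adjusted p = 0.149). It ranged from -1.02 to -0.34 with 1 library left out, and passed without either day 15 library (adjusted p = 0.0456 and 0.0400, where 3.93% and 4.07% of genes were called) and with no filter on low counts (0.0214). AKAP12 (-0.19), CAPN12 (-0.16), LRP1 (-0.08), NT5C3A (-0.05) and LGALS9 (-0.04) had adjusted p-values of 0.621 to 0.919, and with 1 library left out AKAP12 ranged from -0.42 to -0.05 and CAPN12 from -0.25 to -0.01. Whether the line difference itself changed between early and late days was tested as an interaction. None of the 9 genes passed in edgeR or DESeq2, and 0.00605% of all genes were called higher and 0.0% lower, the 1 called gene being NDUFA4L2. SDCBP2 came nearest, at -0.92 (SE 0.21, adjusted p = 0.346), and it, RGCC and CAPN12 were under 0.05 before adjustment. With 1 library left out, 4 of the genes passed. Without the SW620 day 12 library SDCBP2 (adjusted p = 5.07e-07), RGCC (9.84e-05) and AKAP12 (0.00317) did, and without the SW620 day 15 library SDCBP2 (0.00250) and CAPN12 (0.0402). Without either day 12 library 12.3% of all genes were called, and without the day 15 libraries 2.85% and 2.91%. Leaving out the SW620-TET2CD library of the same day gave nearly the same fit. With day as a block, the library left alone on a day adds nothing to the line difference. This is not a second check, and these interactions depend on which days are used. SDCBP2 also passed with no filter on low counts (0.0241), where 0.382% of genes did. With 1 library left out the interaction ranged from -1.08 to -0.77 for SDCBP2, -0.96 to -0.02 for AKAP12, -0.97 to -0.21 for RGCC and -0.65 to -0.28 for CAPN12.

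The bulk libraries of day 15 are not the single-cell libraries and give a separate reading of location. In bulk RNA, fewer cells that express a gene and less RNA per cell cannot be told apart. Outside against inside the colonies, none of the 9 genes passed the edgeR test with line as a block. Over all 17722 genes 0.0% were called in either direction, 1068 were under an unadjusted p of 0.05, and DESeq2 called 21, none of the 9 among them. With 4 libraries and a block the design had 1 residual degree of freedom.

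In SW620 inside and then outside, AKAP12 was at 18.1 and 18.3 TPM, and in SW620-TET2CD at 109 and 54.9 TPM. The outside libraries were thus level in one line and lower in the other, with a fitted log2 fold change of -0.51 (SE 0.26, adjusted p = 0.778). SDCBP2 was at 12.2 and 13.8 TPM in SW620 and at 20.1 and 12.9 TPM in SW620-TET2CD. LGALS9, SHC2 and NT5C3A were lower outside in both lines, an order that 24.3% of all genes had. LGALS9 went from 4.76 to 2.31 TPM in SW620 and from 9.58 to 6.72 TPM in SW620-TET2CD. Its log2 fold change was -0.77 (SE 0.29, adjusted p = 0.772) and ranged from -1.12 to -0.41 with 1 library left out and no block. SHC2 went from 5.14 to 3.46 TPM and from 3.33 to 0.74 TPM, with -1.34 (SE 0.49, adjusted p = 0.772). This SHC2 value ranged from -2.68 to -0.27 with 1 library left out and no block. It passed with no filter on low counts (adjusted p = 0.0205), where 1.5% of genes were called. NT5C3A went from 125 to 113 TPM and from 197 to 140 TPM. None of the 9 was higher outside in both lines, which 28.6% of genes were.

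The remaining 4 genes did not share a direction between SW620 and SW620-TET2CD. RGCC was at 1.21 inside and 2.36 TPM outside in SW620 and at 7.73 and 5.55 TPM in SW620-TET2CD. PSORS1C1 was at 8.35 and 7.48 TPM and at 3.19 and 7.22 TPM. CAPN12, whose bulk values may hold reads of ACTN4, was at 9.88 and 7.42 TPM and at 9.63 and 9.70 TPM, and LRP1 at 5.62 and 4.32 TPM and at 4.86 and 8.36 TPM. No order of inside and outside held in both lines for these 4 genes, and CAPN12 was level in SW620-TET2CD.

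The bulk line difference on day 15 had 0.288% of genes called higher and 0.124% lower in SW620-TET2CD, and none of the 9 passed. AKAP12 was nearest, with a log2 fold change of 2.03 (SE 0.27, adjusted p = 0.0652), and passed in DESeq2 (adjusted p = 0.00424), with upper-quartile factors (0.0473) and with no filter on low counts (9.03e-12), where 3.87%, 1.0% and 7.1% of all genes were called. RGCC was at 1.87 (SE 0.49, adjusted p = 0.148) and NT5C3A at 0.47 (SE 0.13, adjusted p = 0.162), and both passed with no filter on low counts (0.00125 and 0.0147). SHC2 was at -1.38 (SE 0.49, adjusted p = 0.224) and also passed there (0.00384). With 1 library left out the fits also had no block for location, and the calls changed. Line and location are mixed in these fits, so the changes cannot be put down to the library alone. Without the SW620-TET2CD inside library AKAP12 (adjusted p = 4.24e-10), RGCC (0.00823), LRP1 (8.50e-06) and SHC2 (3.89e-06) passed, as did 22.5% of all genes. The SHC2 value ranged from -2.69 to -0.32 with 1 library left out and no block. Without the SW620-TET2CD outside library AKAP12 (3.87e-15), RGCC (0.000168), NT5C3A (2.04e-05), SDCBP2 (0.0123) and LGALS9 (0.0337) passed, as did 16.2% of all genes. Without either SW620 library none of the 9 did, and 0 of all genes in edgeR, with 1186 and 1265 under an unadjusted p of 0.05. The fitted bulk log2 fold changes of the others were 0.23 for SDCBP2, 0.65 for LGALS9, 0.37 for CAPN12, 0.39 for LRP1 and -0.43 for PSORS1C1. With 1 library left out and no block, LGALS9 ranged from 0.20 to 1.07, CAPN12 from 0.17 to 0.54 and NT5C3A from 0.21 to 0.71. The single-cell differences of the same day, on the log2(CPM + 1) scale, had the same sign as in bulk for CAPN12 (0.10), NT5C3A (0.19), LRP1 (0.43) and PSORS1C1 (-0.12). They had the other sign for AKAP12 (-0.30), SDCBP2 (-0.83) and RGCC (-1.15), and LGALS9 (-0.0041) and SHC2 (0.04) were near 0. Bulk values on day 15 were taken inside and outside separately, the single-cell libraries were not divided, and the difference between the assays was not tested.

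**Figure D4:**
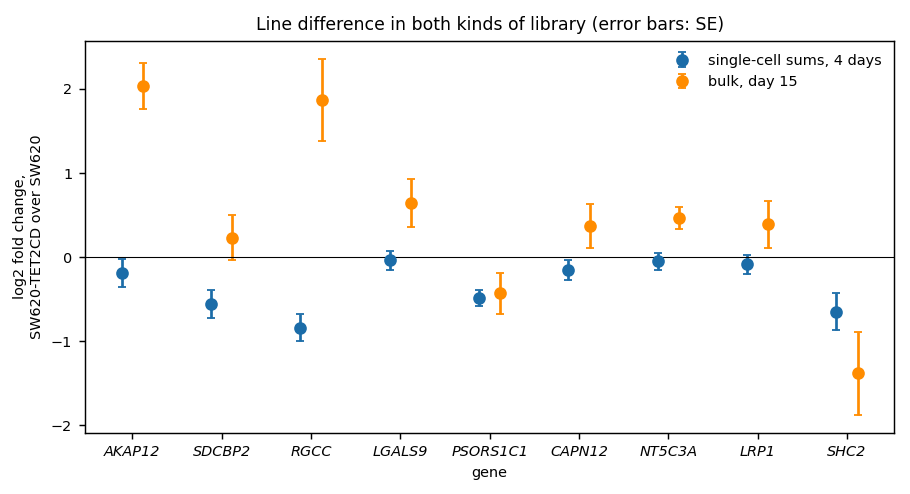
Log2 fold change of SW620-TET2CD over SW620 in the single-cell sums of 4 days (blue) and in the bulk libraries of day 15 (orange), with standard errors. AKAP12 lies at -0.19 and 2.03, and RGCC at -0.84 and 1.87.

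Day 6 and day 15 can also be set side by side in bulk for SW620, with 1 library on day 6. Of the 9 genes, all but RGCC and LGALS9 had a higher TPM on day 15 both inside and outside, as 38.6% of all genes did. More than 1 higher on the log2(TPM + 1) scale in both were CAPN12, LRP1 and SHC2, as 2.3% of all genes were. SHC2 was at 0.37 TPM on day 6 (5 expected counts) and at 5.14 and 3.46 TPM on day 15. LRP1 was at 1.56 TPM on day 6 and at 5.62 and 4.32 TPM on day 15, and CAPN12 at 2.55, 9.88 and 7.42 TPM. AKAP12, by contrast, was at 13.6 TPM on day 6 and 18.1 and 18.3 TPM on day 15, beside the 27.4-fold ratio in the single-cell libraries of SW620. SDCBP2 was at 10.4, 12.2 and 13.8 TPM. RGCC was at 4.01 TPM on day 6 and 1.21 and 2.36 TPM on day 15, where the single-cell value was 5.89-fold higher. LGALS9 was at 11.5 TPM on day 6 and 4.76 and 2.31 TPM on day 15.

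SW480 on day 6 differed from SW620 in several of the genes. RGCC was at 91.0 TPM in SW480 and AKAP12 at 37.6 TPM, above the SW620 day 6 library. SDCBP2 was at 2.69 TPM, LGALS9 at 0.85 TPM and NT5C3A at 34.3 TPM, all below it. Each value is of 1 library.

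**Figure D5:**
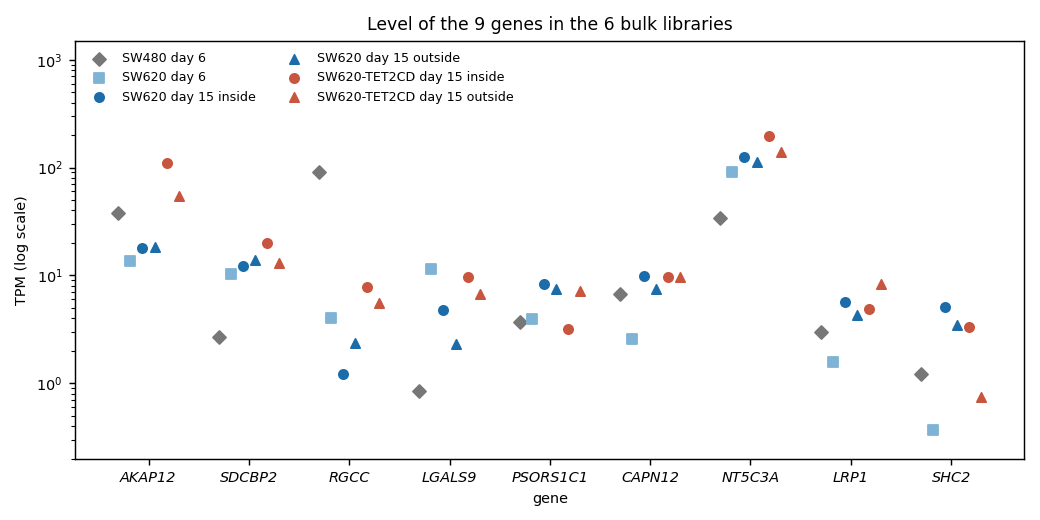
TPM of each gene (log axis) in the 6 bulk libraries. Circles are inside and triangles outside the colonies on day 15, in SW620 (blue) and SW620-TET2CD (red), and squares and diamonds are the day 6 cultures. RGCC in SW480 lies at 91.0 TPM, and AKAP12 in SW620-TET2CD at 109 and 54.9 TPM.

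Genes related to the 9, none of them members, were counted in the test of late against early single-cell libraries, where 29.4% of all genes were called higher and 28.6% lower and the median log2 fold change was 0.04. Of 8 genes around RGCC and CDK1, 8 fell, with a median of -2.22. The mitotic kinase PLK1 fell by 3.10 (log2, SE 0.27, adjusted p = 1.69e-05), cyclin CCNA2 by 2.73 and CCNB1 by 2.69. RGCC itself was higher late in CPM in both lines. Of 21 tested AKAP and protein kinase A genes, 6 rose and 6 fell, among them AKAP7 (-1.66), the regulatory subunit PRKAR1B (-1.18) and the inhibitor PKIB (0.90). Of 10 syntenin and syndecan genes 5 rose and 1 fell. Syndecan SDC4 rose by 1.78 (SE 0.31, adjusted p = 0.000819), SDC3 by 1.46 and the phospholipase PLD2 by 0.77.

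Of 10 genes around SHC adaptors 7 rose and 0 fell, with GAB2 at 1.42 (SE 0.23, adjusted p = 0.000488), the RAS exchange factor SOS2 at 1.17 and SHC1 at 0.62. Of 14 lipoprotein receptor genes and their partners 7 rose and 4 fell, with VLDLR at 1.88 (SE 0.20, adjusted p = 5.06e-05) and LRP10 at 1.37. Of 7 galectin genes 4 rose and 0 fell, with LGALS1 at 0.85, LGALS8 at 0.56 and LGALS7B, which has a near-identical copy, at 0.66, while LGALS9 did not follow. Of 13 nucleotide enzymes 3 rose and 6 fell, with NT5DC2 at -1.90, cytidine deaminase CDA at 1.50 and uridine phosphorylase UPP1 at -1.07. Of 12 calpains 1 rose, CAPN8 (1.56), and 2 fell, CAPN15 (-1.08) and the small subunit CAPNS1 (-0.51). With upper-quartile factors 5 calpains rose. Of 6 neighbors of PSORS1C1 4 fell and 1 rose, with TCF19 at -3.31, C6orf15 at -2.38 and CCHCR1 at -0.83. PSORS1C1, higher late in CPM, thus had the other direction than these 4.

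The lists used for the cell split were counted in the same test. Of 12 hypoxia genes 11 rose, with a median of 2.31, and NDRG1 (4.46), NDUFA4L2 (4.33) and DDIT4 (4.23) changed most. All 12 proliferation genes fell, with a median of -2.70, and RRM2 (-3.36) and BIRC5 (-2.77) were among the lowest. Of 12 epithelial genes 6 rose and 0 fell, led by CDH1 (1.39), CLDN4 (1.24) and CLDN7 (1.10). Of 9 tested mesenchymal genes 5 rose and 2 fell, with PLAUR at 3.08 and ZEB1 at 0.82. Of the 12 markers of other cells 6 were tested and 4 rose, among them LYZ (1.07) and COL1A1 (0.76). In bulk, outside against inside and between the lines, 0 genes of the 9 lists of related genes passed, and of these 4 lists 1 epithelial gene was higher in SW620-TET2CD.

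The genes whose log2(CPM + 1) profile over the 8 libraries was most like that of a member were taken from 8711 genes with a mean of at least 8 CPM. TMEM120B (r = 0.993) and the adaptor SHC1 were among the 3 nearest to AKAP12. CCNB1IP1 (r = 0.999), the phosphatase DUSP5 and KBTBD3 were nearest to SDCBP2, and HPCAL1 (r = 0.986), FA2H and the integrin ITGB7 to RGCC. CALCOCO1, ZNF226 and FBXL8 were nearest to NT5C3A, CD27-AS1, C9orf85 and ZNF277 to CAPN12, FBXL8, MOAP1 and INSIG2 to LRP1, and MKRN1, RAC2 and CD27-AS1 to SHC2. EPS8L3, the forkhead factor FOXA3 and IGFL2-AS1 were nearest to PSORS1C1. LGALS9 had no gene as near, with AC245014.3 (r = 0.948), COQ7 and AC253572.2. The mean of the 9 standardised profiles was nearest to CD27-AS1, DEPP1, ERRFI1, ZNF581, BBC3, CRYL1, LEMD1, HSBP1L1, OPTN and RAC2, and 1220 genes had r above 0.9 with it. Each r is over 8 libraries that share days and lines.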

How the data were processed

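Single-cell RNA-seq was analyzed from 8 libraries and bulk RNA-seq from 6. The deposited single-cell matrices hold UMI counts per gene and barcode, written by the authors with Cell Ranger 4.0 against GRCh38. The deposited bulk tables hold RSEM expected counts (Bowtie alignment, versions not given in the sources used here) and TPM as the authors computed them. The submitters' processing notes name mm10 for them, but the gene identifiers are human, and no coordinates were taken from them. No doublet filter was applied. Kept cells had from 200 to 4500 genes, from 1000 to 20000 UMIs and no more than 10% mitochondrial UMIs, and their UMIs were summed per library. CPM is relative to these sums. Levels, shares and ratios of members are descriptions, and bulk levels are TPM, with log2(TPM + 1) for differences. Shares were computed after drawing 2000 UMIs per cell, with exact (Clopper-Pearson) 95% intervals that cover counting error only.

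Tests used edgeR 4.0.16 (filterByExpr, TMM, two-sided quasi-likelihood test) on the sums and on expected counts rounded to whole numbers, with p-values adjusted by Benjamini-Hochberg over every gene tested, at 0.05, and DESeq2 1.42.0 as an alternative, in R 4.3.3 and Python 3.11.15. The late against early test had line as a block, the line and interaction tests had day, and the bulk tests had line or location. Bulk fits with 1 library left out had no block, so line and location are mixed in their values. The fits were tested on simulated counts. Bulk rows of the Y copies of pseudoautosomal genes (45) were left out. The 9 genes and all gene lists were chosen with earlier results of these data known. Named were all members, in each list up to 3 genes with the largest called change at a mean of at least 1 CPM, the 2 largest companion ratios at a mean of at least 8 CPM, and for likeness the 3 nearest genes to each member and the 10 nearest to the mean. Some genes that this rule names are not reported here. Alternatives were other normalization, filters, blocks, cell limits, pseudocount, drawing depth, splitting gene and correlation, and each library left out in turn.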

Additional observations from a re-analysis of the deposited data

Results flagged for a closer look

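For 6 of the 9 genes the bulk difference between outside and inside the colonies on day 15 had opposite directions in the lines, with 1 library for each line and location, so the difference was not tested. On the log2(TPM + 1) scale, SW620-TET2CD minus SW620, it came to -0.99 for AKAP12 (0.01 in SW620 and -0.98 in SW620-TET2CD), -0.76 for SDCBP2, -1.02 for RGCC, 1.11 for PSORS1C1, 0.38 for CAPN12 and 0.99 for LRP1. For AKAP12 and CAPN12 one of the directions was within 0.01 of 0. Of all 17722 genes, 28.6% were higher outside in both lines and 24.3% lower in both, and the rest had no shared direction. The count of 6 is therefore not read as particular to these genes.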

How the results depend on the processing

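Of the genes called between late and early single-cell libraries, 4861 were higher and 4726 lower, and with upper-quartile factors 6250 and 3636, since that scaling moved the median log2 fold change of all genes from 0.04 to 0.21. The 8 genes kept every late library above every early one under 3 of the other 4 cell filters. With every barcode 7 did, since the lowest late library of RGCC (8.68 CPM) was below its highest early one (9.31 CPM).

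For the line difference in single cells, 696 genes were called, 1489 with no filter on low counts and 46 without the day block, and leaving out 1 library gave 416 to 680. The interaction called 1 gene, 6 in DESeq2, 103 with no filter, 0 without the block, 3 with every barcode, 2 with no upper limits on cells, 0 with a mitochondrial limit of 20%, and 9 to 2067 with 1 library left out. Outside against inside called 0 genes, 21 in DESeq2 and 472 with no filter. The bulk line difference called 73, 686 in DESeq2, 178 with upper-quartile factors, 2239 with no filter, 8 without the block, and 0 to 4191 with 1 library left out, where the lone library of a location or line is assumed to vary like the others. The bulk fits with 1 library left out also had no block, so the effects of the library and of the block cannot be told apart. Where the filter was dropped more genes were tested, and the p-values also became much smaller. For the bulk line difference the smallest adjusted p in edgeR went from 0.0211 to 1.10e-21. AKAP12 kept nearly the same log2 fold change there, 2.03 and 2.02. Calls made only with no filter are therefore not read as support. The cause of these changes was not tested.

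Some uncalled member values changed sign. In the interaction, PSORS1C1 was 0.014 with upper-quartile factors and 0.014 without the 8% of cells with most UMIs, and LRP1 was -0.090 with every barcode and -0.088 with no upper limits. Leaving out 1 library, the interaction ranged from -0.20 to 0.14 for PSORS1C1, -0.079 to 0.34 for LRP1 and -0.62 to 0.81 for SHC2, and the single-cell line difference of LGALS9 from -0.093 to 0.049. RGCC outside against inside was -0.22 without the block. Leaving out 1 library there also dropped the block, so the line difference enters the values. AKAP12 then ranged from -1.76 to 0.96, SDCBP2 from -0.65 to 0.026 and RGCC from -1.03 to 1.66. PSORS1C1 ranged from -0.45 to 0.077, CAPN12 from -0.31 to 0.39, NT5C3A from -0.62 to 0.040 and LRP1 from -0.13 to 0.82. The bulk line difference, with 1 library left out and no block, ranged from -0.16 to 0.61 for SDCBP2 and from -0.081 to 0.84 for LRP1.

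Without drawing cells to one depth, 27 of 36 member pairs with enough cells lay above 1 in all 4 late libraries in place of 11 of 17, and 16 of 29 did at 4000 UMIs. The share of all gene pairs was not computed at any depth. With SDCBP2 as the splitting gene, 12 proliferation genes were lower, 2 mesenchymal genes higher and 2 lower, and 0 epithelial genes lower. By Spearman's rho 12 genes tied at 1 with the mean profile, so the order among them is arbitrary. Of the 10 listed, 0 were in the list by Pearson's r, and ZNF581 of that list was among the 12 tied.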
